A study of Rattus norvegicus with 16 samples.

Results

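Schwann cells purified from rat sciatic nerve 7 days after a crush were compared with Schwann cells purified from uncrushed nerve, gene by gene, to ask which changes remained at the latest day that was sampled. The comparison used 4 of the 16 libraries of the series, 2 for each group, and the libraries of days 3 and 5 were used to place each change in time. The nerves of the injured groups were crushed at mid-thigh at postnatal day 18, and the segment distal to the crush was taken. The labels give postnatal day 18 for every library, so animals crushed at that age were older when collected at day 7. The labels do not give the age of the uncrushed animals at collection, no sham operation was made, and age and time since injury cannot be told apart here. Each library came from at least 10 pooled nerves. Cells were dissociated with enzymes, passed over dishes coated with antibodies against CD45 and Thy1, which hold back blood-derived cells and fibroblasts, and then selected with an antibody to O4, which Schwann cells carry on their membrane. The labels give no genotype, strain or agent for any group, and nothing says that the pools of a group came from separate operations, so p-values measure only the spread between these libraries.

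Schwann cells are the glia of peripheral nerve, and in intact nerve they wrap axons in myelin or ensheathe bundles of thin axons. After the axon is cut off from its cell body they stop making myelin, divide, help to clear myelin debris and secrete growth factors that support regrowing axons, a state called the repair Schwann cell. When new axons arrive, the cells turn back toward myelination, which needs large amounts of myelin protein, cholesterol and other lipid.

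Library totals were 12599974 and 14033930 expected counts for uncrushed cells and 12334355 and 17850534 at day 7, where an expected count is an estimate of the fragments that came from a gene. Levels are given as FPKM, fragments per kilobase of transcript, scaled to the size of the library, for replicates 1 and 2 in that order. Mitochondrially encoded genes took 2.90% to 3.65% of the counts in uncrushed and 4.86% to 5.44% in day 7 libraries. The 15 markers of macrophages and other myeloid cells summed to between 10.1 and 25.3 FPKM in uncrushed and to between 19.0 and 21.9 FPKM at day 7, against 1845 to 1914 FPKM in whole nerve at day 7. At day 7 none of the 11 tested was called by edgeR, 0 of them at an unadjusted p below 0.05 and 0 by DESeq2. The day 3 libraries, with totals of 15806398 and 27562637 counts, differed, as these markers summed to 14.65 FPKM in replicate 1 and 84.98 FPKM in replicate 2. At day 3, 2 of the 11 were called higher. The part of myeloid RNA in the day 3 levels set beside day 7 below was not tested. The 13 markers of fibroblasts summed to 1344 to 1610 FPKM in uncrushed and 372 to 472 FPKM at day 7, and the 8 markers of pericytes and smooth muscle to 52.4 to 62.3 and 16.2 to 21.5 FPKM. Uncrushed whole nerve had 6930 to 7598 FPKM of the first, 272 to 329 of the second and 119 to 124 of endothelial markers. Perineurial markers summed to 115 to 119 FPKM in uncrushed purified cells and 153 to 229 in uncrushed whole nerve. For satellite glia the sums were alike, 144 to 168 and 147 to 158 FPKM. Of the 9 Schwann cell markers all were tested and 4 rose and 4 fell, among them S100b, a calcium-binding protein of glia, with 533 and 430 FPKM in uncrushed and 1622 and 1478 FPKM at day 7. Of the other marker lists, endothelial cells had 3 lower of 5 tested and sums of 5.59 to 6.78 and 2.10 to 2.26 FPKM, perineurial cells 2 lower of 3, pericytes and smooth muscle 2 lower of 7, satellite glia 2 higher and 2 lower of 4, neutrophils, lymphocytes and mast cells 1 higher of 3, and fat, muscle, red blood cells and neurons 1 lower of 4. In such bulk samples, fewer cells of a type and less RNA per cell cannot be told apart.

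At day 7, 7016 of 14961 genes tested, or 46.9%, differed from uncrushed cells at an adjusted p below 0.05 in the quasi-likelihood test of edgeR, which is what called means throughout. Of these, 3747 genes were higher, 25% of those tested, and 3269 were lower, 21.9%. These shares are the ones to set beside the day 7 counts of each gene list below. Which direction had more calls depended on the setting. There were 3391 higher and 3559 lower with RLE factors, 2943 and 3055 with DESeq2, and 2863 and 3141 with only the groups compared. Against a 1.5-fold change there were 1423 and 1735. A change of at least 2-fold was seen in 1459 of the higher and 1962 of the lower genes, and a change of at least 4-fold in 491 and 892. The median log2 fold change over all genes tested was 0.06. The smallest p that an exact two-sided permutation test can reach with 2 libraries a group is 0.333, so these calls rest on the spread that edgeR estimates across all genes and the 8 Schwann cell libraries.

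Most of what was called at day 7 was called at days 3 and 5 as well. In the same fit 7860 genes were called at day 3, 52.5% of those tested, and 8166 at day 5, 54.6%. By direction, 26.9% of genes tested were higher and 25.7% lower at day 3, and 29% and 25.6% at day 5. All 3 days called 5225 genes in the same direction, which is 74.5% of the genes called at day 7, with 2781 higher and 2444 lower. A further 1032 genes were called in the same direction at days 5 and 7 but not in that direction at day 3, 211 at days 3 and 7 but not in that direction at day 5, and 479 at day 7 alone. These contrasts share the uncrushed libraries, so the counts describe how long calls lasted and are not a test of it. In the other direction, 1098 genes called higher at day 3 and 1225 called lower at day 3 were not called at day 7. Of these, only 436 and 521 were also called as moving back in the direct test of day 7 against day 3. A lost call alone is therefore not a return to the uncrushed level.

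**Figure D1:**
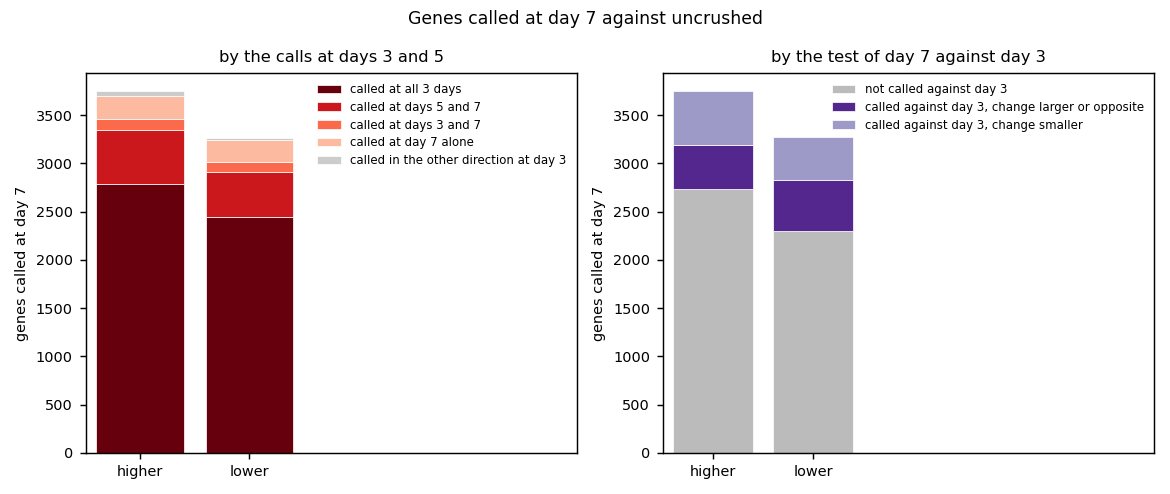
Number of genes called at day 7 against uncrushed, higher and lower, divided on the left by the calls at days 3 and 5 and on the right by the direct test of day 7 against day 3. The largest block on the left holds the 2781 higher and 2444 lower genes called at all 3 days, and on the right the genes not called against day 3 number 2738 higher and 2302 lower.

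The direct test of day 7 against day 3 called 3140 genes, 21% of those tested, 1532 higher (10.2%) and 1608 lower (10.7%). The count was 1597 without day 7 replicate 1, 1772 without day 3 replicate 1 and 1533 without day 3 replicate 2. Among the genes higher at day 7 than in uncrushed, 457 had also moved above their day 3 level and 552 had dropped back toward uncrushed. Among the lower genes, 525 lay below their day 3 level and 442 had come back toward uncrushed. Without day 7 replicate 1 these 4 counts were 217, 270, 236 and 242. Which count of each pair was larger depended on the scaling, with 484, 462, 462 and 497 under upper quartile factors and 1006, 429, 54 and 194 in the FPKM of Cufflinks, and among the lower genes also on the test, with 103 and 125 against a 1.5-fold change. Between day 5 and day 7 only 291 genes were called, 1.95% of those tested, 176 higher (1.18%) and 115 lower (0.769%), a count that ran from 22 to 1048 over the alternative settings. In the FPKM of Cufflinks the balance turned, with 78 higher and 815 lower.

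Genes for the proteins of compact and non-compact myelin had returned part of the way to uncrushed. Of 27 tested, 15 were lower and 2 higher at day 7, where 20 had been lower at day 3 against 25.7% of all genes. In the direct test 15 of the 27 were higher at day 7 than at day 3 against 10.2% of all genes. Their median log2 fold change against uncrushed was -1.82 at day 3, -1.52 at day 5 and -0.78 at day 7. Pmp22, the myelin protein whose dosage underlies a hereditary neuropathy, had 8584 and 8721 FPKM in uncrushed and 3353 and 2754 FPKM at day 7, and its log2 fold change was -1.55 (SE 0.11, adjusted p = 6.13e-06) after -3.80 at day 3. Each day 7 library lay below each uncrushed library, as in 31.6% of all genes tested.

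Large returns came in genes of non-compact myelin and of the contact with the axon. Prx, a scaffold protein of the outer Schwann cell membrane, had 124 and 141 FPKM in uncrushed and 58.3 and 39.6 FPKM at day 7, and rose from a log2 fold change of -6.01 at day 3 to -1.48 (SE 0.18, adjusted p = 0.00012). Mag, an adhesion protein of the membrane next to the axon, went from -5.90 at day 3 to -1.52 (SE 0.17, adjusted p = 7.18e-05), with 43.9 and 52.2 FPKM in uncrushed and 19.9 and 15.1 FPKM at day 7. Cldn19, a tight junction protein of the myelin loops, had 226 and 243 FPKM in uncrushed and 208 and 149 FPKM at day 7, and its log2 fold change was -0.50 (SE 0.15, adjusted p = 0.0198) after -5.45 at day 3. The call was lost without day 7 replicate 2 (-0.26) and without uncrushed replicate 2 (-0.46), besides the test against a 1.5-fold change. In the FPKM of Cufflinks Cldn19 was at 0.16, where the median of the 6274 genes was 0.66. The median of the 14961 genes in the counts was 0.06, so Cldn19 lay below the median on both scales. For all 3 genes the rise from day 3 to day 7 was called, by 4.53 for Prx, 4.38 for Mag and 4.95 for Cldn19 on the log2 scale.

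Other members returned less or had hardly moved. Mal, a protein of lipid-rich membrane, had 571 and 476 FPKM in uncrushed and 111 and 83.6 FPKM at day 7 (log2 fold change -2.46, SE 0.15, adjusted p = 1.79e-06). Drp2, which joins Prx to the membrane, was the lowest of the list at -3.46 (SE 0.23, adjusted p = 2.98e-06), with 67.7 and 75.6 FPKM in uncrushed and 8.13 and 5.15 FPKM at day 7. Mbp, which holds the inner faces of compact myelin together, had 1584 and 1736 FPKM in uncrushed and 799 and 633 FPKM at day 7, at -1.27 (SE 0.13, adjusted p = 5.24e-05). Cnp, an enzyme of non-compact myelin, was not called, with 315 and 326 FPKM against 358 and 351 FPKM, and neither was Gjb1, the gap junction protein connexin 32 (-0.17, adjusted p = 0.602).

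Genes of cholesterol synthesis stayed low. Of 26 tested, 24 were lower at day 7 and 1 was higher, all 24 had been lower at days 3 and 5 too, and the median log2 fold change was -2.17 at day 3, -2.04 at day 5 and -2.02 at day 7. Against day 3, 8 of the 26 were higher and 4 lower, beside 10.2% and 10.7% of all genes. Hmgcs1, an early enzyme of the pathway, had 876 and 777 FPKM in uncrushed and 131 and 134 FPKM at day 7, and its log2 fold change was -2.68 (SE 0.13, adjusted p = 5.92e-07) after -3.29 at day 3. Fdft1, which commits the pathway to sterols, was among the 10 lower genes with the smallest p, with 108 and 116 FPKM and 16.5 and 14.3 FPKM, at -2.90 (SE 0.11, adjusted p = 2.14e-07) after -3.75 at day 3. In both genes the day 7 libraries lay several fold below the uncrushed ones, and the rise from day 3 to day 7 was called, by 0.61 for Hmgcs1 (adjusted p = 0.00818) and 0.85 for Fdft1 (adjusted p = 0.00073).

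A regulator and later enzymes of the pathway were low as well. Srebf2, the transcription factor that drives the pathway, was at -1.80 (SE 0.18, adjusted p = 3.74e-05), Sqle at -2.17 and Dhcr7 at -1.26, the last 2 being enzymes of its later steps. The sole higher member was Scap, the partner protein of Srebf2 (log2 fold change 0.32, adjusted p = 0.0331), a call lost in 12 of 15 alternatives besides the test against a 1.5-fold change. Abca1, which exports cholesterol from cells, moved the other way and was among the 10 higher genes with the smallest p, with 30.3 and 32.2 FPKM in uncrushed and 258 and 266 FPKM at day 7 (log2 fold change 3.03, SE 0.10, adjusted p = 1.24e-07).

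**Figure D2:**
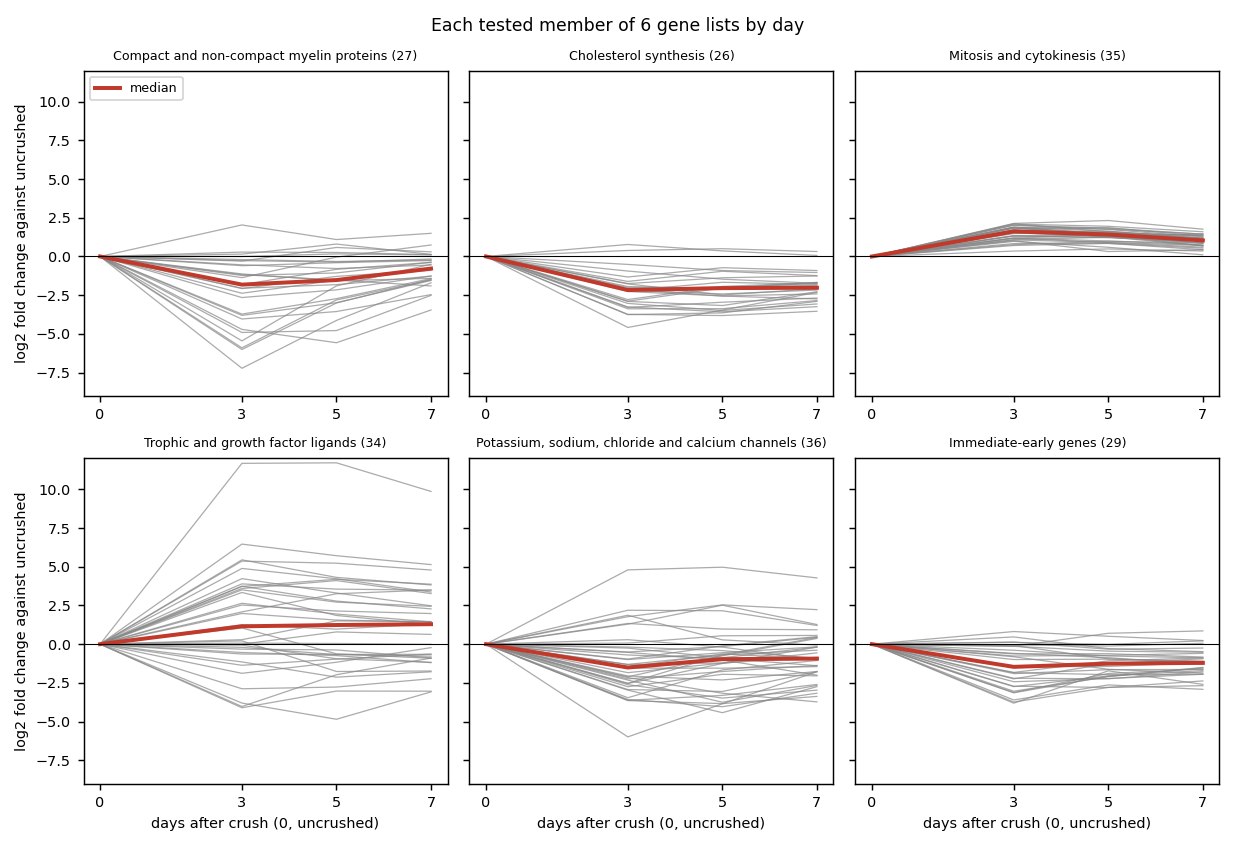
Log2 fold change against uncrushed cells (vertical axis) by days after crush (horizontal axis) for every tested member of 6 gene lists, each thin line being a gene and the thick line the median. The myelin median climbs from -1.82 to -0.78 between days 3 and 7 while the cholesterol median stays at -2.17 to -2.02, and the top line among the ligands is Edn3, whose fitted value rests on uncrushed libraries with no count.

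Fatty acid, sphingolipid and galactolipid genes had medians of -1.14 at day 3 and -0.35 at day 7, nearer to uncrushed than those of both the myelin and the cholesterol list. Of 26 tested, 13 were lower and 7 higher, with fewer higher without day 7 replicate 2. Fa2h, which makes the hydroxylated fatty acids of myelin lipids, had 34.3 and 40.3 FPKM in uncrushed and 19.6 and 14.0 FPKM at day 7, rising from -3.38 at day 3 to -1.19 (SE 0.20, adjusted p = 0.000975). Ugt8, which makes galactosylceramide, was at -0.62 (SE 0.11, adjusted p = 0.00125), a call lost in the FPKM of Cufflinks (-0.17, below the median of all genes there) besides the test against a 1.5-fold change, and Gal3st1, which sulfates it, was not called (0.17, adjusted p = 0.556) after -1.44 at day 3. Fasn, the fatty acid synthase, was at -0.88 (SE 0.09, adjusted p = 5.73e-05), and Acss2, which supplies acetyl-CoA, was the lowest of the list at -2.64 (SE 0.16, adjusted p = 1.53e-06). Fads2, a fatty acid desaturase, was the highest, with 54.8 and 56.7 FPKM in uncrushed and 112 and 128 FPKM at day 7 (log2 fold change 1.03, SE 0.11, adjusted p = 4.6e-05).

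Of 19 transcription factors of the Schwann lineage and of myelination, 6 were higher and 5 lower at day 7, with 3 higher without day 7 replicate 2 or uncrushed replicate 1 and 2 with only the groups compared. Egr2, the factor that myelin genes depend on, had 270 and 286 FPKM in uncrushed and 85.5 and 106 FPKM at day 7 (log2 fold change -1.60, SE 0.13, adjusted p = 9.12e-06), up from -3.12 at day 3. Pou3f1, a factor of the promyelinating stage, had fallen by 1.69 on the log2 scale at day 3 and stood above uncrushed at day 7, with 23.3 and 21.6 FPKM and then 32.3 and 35.0 FPKM (0.54, SE 0.14, adjusted p = 0.0113). Sox10, the factor that defines the lineage, had 59.1 and 69.6 FPKM and 85.3 and 95.5 FPKM (0.45, SE 0.12, adjusted p = 0.0106), a call lost in 2 of 15 alternatives besides the test against a 1.5-fold change, as against 1 for Pou3f1. Sox6, a related factor, kept falling, from -0.75 at day 3 to -2.28 (SE 0.13, adjusted p = 1.25e-06), with 14.4 and 12.4 FPKM and then 2.89 and 3.34 FPKM.

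Regulators of the repair state and inhibitors of myelination were split, with 8 higher and 11 lower of 27. Runx2, a factor best known from bone, was among the 10 higher genes with the smallest p and had 2.10 and 2.16 FPKM in uncrushed and 50.6 and 64.8 FPKM at day 7 (log2 fold change 4.64, SE 0.15, adjusted p = 1.02e-07), below its 6.10 at day 3. Hmga2, a chromatin protein of embryonic cells, had no count in uncrushed cells and 24 counts over both day 7 libraries, at least 6.90-fold higher against a floor of 3 counts over the group. Cited2, a transcriptional co-regulator, had 8.93 and 10.3 FPKM and 40.0 and 67.6 FPKM (2.44, SE 0.23, adjusted p = 2.51e-05), and Sox2, which holds Schwann cells immature, 25.9 and 19.0 FPKM and 42.0 and 53.8 FPKM (1.06, SE 0.16, adjusted p = 0.000553). Jun, the factor on which the repair state depends, was lower in these libraries at day 7, with 383 and 408 FPKM in uncrushed and 260 and 280 FPKM (-0.59, SE 0.10, adjusted p = 0.000839), a call lost in 1 of 15 alternatives besides the test against a 1.5-fold change. In whole nerve, where RNA was taken without dissociation, Jun had 10.3 and 9.39 FPKM in uncrushed and 35.1 and 45.4 FPKM at day 7, a level and a direction unlike those of the purified cells.

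Surface and filament proteins of immature and non-myelinating Schwann cells did not move as a set, since 11 of 27 were higher and 13 lower. Ngfr, the p75 neurotrophin receptor, had 54.0 and 38.0 FPKM in uncrushed and 558 and 751 FPKM at day 7 (log2 fold change 3.79, SE 0.19, adjusted p = 6.07e-07). Cd24, a small anchored surface protein, had 5.20 and 5.50 FPKM and 124 and 151 FPKM (4.64, SE 0.15, adjusted p = 1.02e-07), and was higher than at day 3 by 0.51. Tes, a focal adhesion protein, had 2.56 and 1.02 FPKM and 50.5 and 48.6 FPKM (4.73, SE 0.28, adjusted p = 1.57e-06). The uncrushed and day 7 libraries of these genes were several fold apart.

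The lower members included adhesion molecules and a glial filament that are used as markers of the same cells. Cdh2, N-cadherin, had 79.2 and 76.7 FPKM in uncrushed and 11.5 and 12.8 FPKM at day 7 (log2 fold change -2.72, SE 0.11, adjusted p = 2.22e-07). Gfap, the filament of non-myelinating Schwann cells, had 96.9 and 92.7 FPKM and 19.0 and 17.8 FPKM (-2.41, SE 0.12, adjusted p = 7.26e-07), and it lay below its day 3 level by 0.59. Ncam1 was at -1.99 and L1cam at -1.82, both cell adhesion molecules. Cadm2, another, was the lowest of the nodal and axon contact genes described further on, with 213 and 169 FPKM and 19.0 and 19.9 FPKM (-3.34, SE 0.17, adjusted p = 5.92e-07). Gap43, a growth-associated protein, was at 3.27 at day 3 and was not called at day 7 (0.80, adjusted p = 0.0824). It was called higher at 1.27 without day 7 replicate 1 and at 0.80 with no filter on low counts. Its 0.68 in the FPKM of Cufflinks, also called, lay at the median of all genes there (0.66).

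Growth factor ligands had the highest median of the 30 functional lists at day 7, 1.29 on the log2 scale, with 18 higher and 10 lower of 34. Gdnf, a survival factor for motor neurons, had 3.26 and 1.60 FPKM in uncrushed and 23.4 and 30.3 FPKM at day 7 (log2 fold change 3.37, SE 0.26, adjusted p = 7e-06), below its 4.89 at day 3. Bdnf, a neurotrophin, was higher than at day 3, with 0.26 and 0.13 FPKM in uncrushed, 1.63 and 3.02 FPKM at day 7 and log2 fold changes of 2.08 at day 3, 3.26 at day 5 and 3.50 at day 7 (SE 0.44, adjusted p = 0.00016). Ptn, a heparin-binding factor, was not above uncrushed at day 3 and had 75.7 and 56.6 FPKM in uncrushed and 208 and 167 FPKM at day 7 (1.46, SE 0.15, adjusted p = 4.2e-05). Mdk, its relative, had 5.10 and 4.12 FPKM and 50.7 and 47.3 FPKM (3.87, SE 0.20, adjusted p = 6.08e-07).

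Of the remaining ligands, Edn3, endothelin 3, had no count in uncrushed and 12.4 and 13.8 FPKM at day 7, at least 60.9-fold higher against the floor of 3 counts over the group. Shh, sonic hedgehog, had 4 counts over the uncrushed and 136 over the day 7 libraries, a 29.3-fold ratio with a 95% counting interval of 11.2 to 109. Btc, a ligand of the EGF receptor, was at 2.48 (SE 0.29, adjusted p = 0.000103) after 4.23 at day 3, and Lif, a cytokine of the interleukin 6 family, at 3.27 (SE 0.28, adjusted p = 1.42e-05). Artn, a relative of Gdnf, was at 1.31 (adjusted p = 0.0176), a call lost in 4 of 13 alternatives besides the test against a 1.5-fold change. Cntf, a factor that intact Schwann cells store, was lower, with 33.6 and 26.6 FPKM in uncrushed and 13.5 and 13.6 FPKM at day 7 (-1.20, SE 0.15, adjusted p = 0.000138).

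Among 39 growth factor receptors 12 were higher and 16 lower. Gpr83, a G protein-coupled receptor, was the highest, with 0.23 and 0.34 FPKM in uncrushed and 46.1 and 71.1 FPKM at day 7 (log2 fold change 7.64, SE 0.32, adjusted p = 2.6e-07), and it had risen by 1.15 since day 3. Gfra1, the co-receptor for Gdnf, had 96.0 and 70.0 FPKM and 475 and 468 FPKM (2.43, SE 0.12, adjusted p = 6.06e-07). Ntrk2, the receptor for Bdnf, was the lowest of the list, with 114 and 92.5 FPKM and 5.19 and 5.73 FPKM (-4.28, SE 0.17, adjusted p = 2.1e-07), and fell by 1.10 between day 3 and day 7. Erbb3, through which axonal neuregulin acts, was higher by a small step (0.53, SE 0.09, adjusted p = 0.00128), whereas Adgrg6, a receptor needed to start myelination, was not called (0.02, adjusted p = 0.892).

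**Figure D3:**
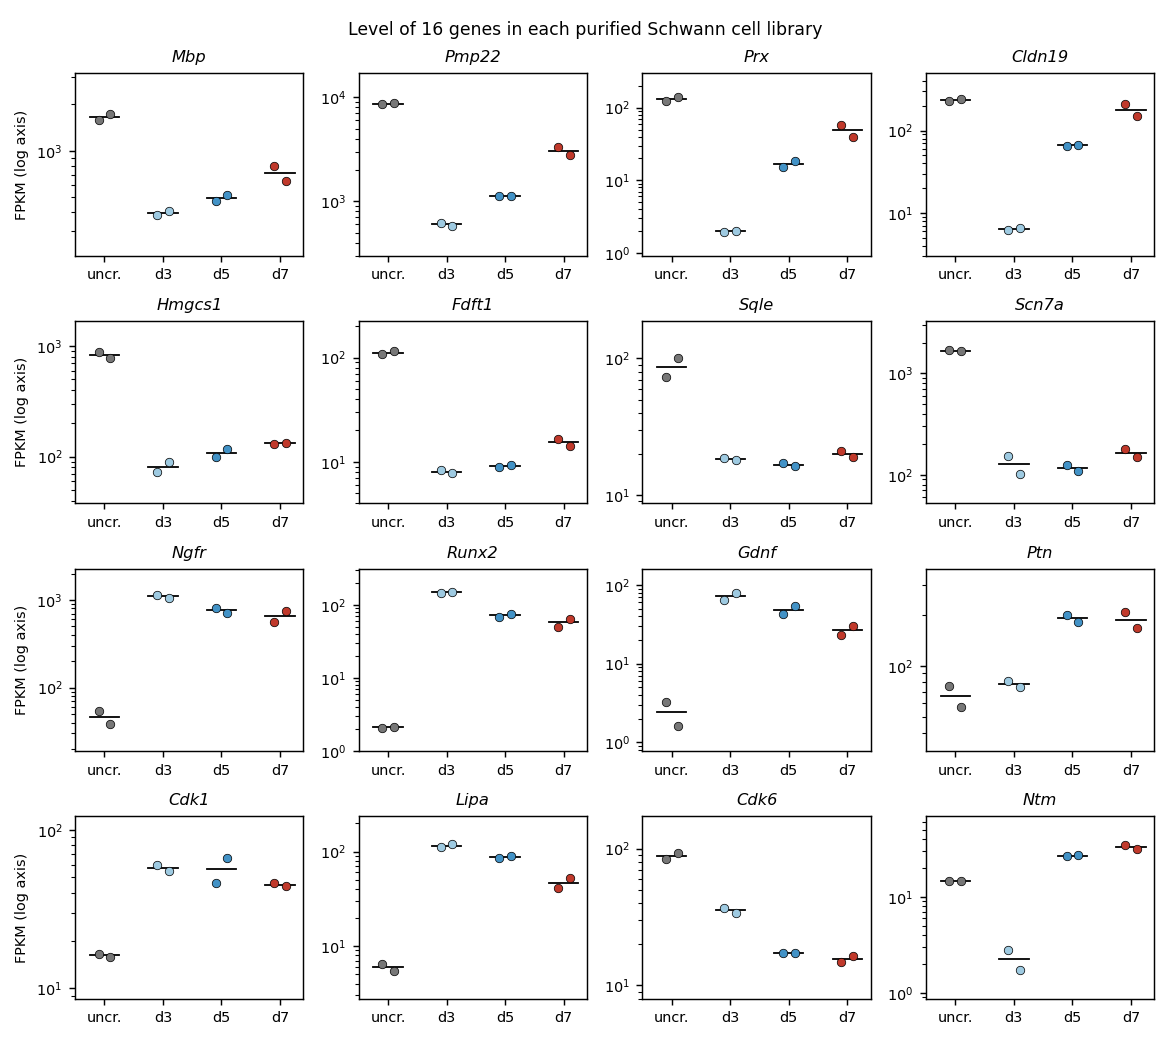
FPKM on a log axis (vertical) of 16 genes in each Schwann cell library, points being libraries and bars the mean of 2, for uncrushed nerve (uncr.) and 3, 5 and 7 days after crush (d3, d5, d7). Day 7 lies between day 3 and uncrushed for Pmp22, Mbp, Prx and Cldn19, stays near day 3 for Sqle and Scn7a, falls below day 3 for Cdk6, and passes from below to above uncrushed for Ntm.

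Genes of chemokines, cytokines and secreted immune mediators were lower more often than higher, 9 against 5 of 25. Cxcl1, a chemokine for neutrophils, had 569 and 543 FPKM in uncrushed and 25.4 and 33.1 FPKM at day 7 (log2 fold change -4.31, SE 0.19, adjusted p = 3.39e-07). Ccl2, which draws monocytes, had 514 and 456 FPKM and 108 and 152 FPKM (-1.96, SE 0.25, adjusted p = 0.000184). In undissociated whole nerve, uncrushed, Cxcl1 had 0.26 and 0.38 FPKM and Ccl2 12.7 and 16.2 FPKM, far under the purified cells. Whole nerve at day 7 had 0.60 and 0.60 FPKM of Cxcl1 and 155 and 118 FPKM of Ccl2. Ccl2 was thus higher at day 7 in whole nerve and lower in the purified cells. Il18, an interleukin of the interleukin 1 family, had 1 count over the uncrushed and 51 over the day 7 libraries, a 44.0-fold ratio with a counting interval of 7.54 to 1770. Spp1, osteopontin, was at 1.35 (SE 0.17, adjusted p = 0.000197) after 3.23 at day 3, and Lgals3, galectin 3, at 0.90 (SE 0.10, adjusted p = 7.7e-05) after 2.12.

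Immediate-early genes, which are switched on within minutes of a stimulus, were lower in 23 of 29 and higher in 0 by edgeR, also 0 at an unadjusted p below 0.05 and 0 by DESeq2, with a median log2 fold change of -1.21. Fos had 934 and 962 FPKM in uncrushed and 311 and 320 FPKM at day 7 (log2 fold change -1.63, SE 0.11, adjusted p = 3.7e-06). Zfp36, which destabilises messages of inflammation, had 1875 and 2067 FPKM and 374 and 411 FPKM (-2.37, SE 0.11, adjusted p = 4.83e-07). The 30 genes summed to 9130 and 10120 FPKM in uncrushed and 3644 and 4368 FPKM in day 7 Schwann cells, whereas in undissociated whole nerve they summed to 579 and 539 FPKM in uncrushed and 602 and 706 FPKM at day 7. The part of the purification in the lower values at day 7 was not tested. Over all genes tested, 21.9% were lower and 25% higher, the shares to set beside the next lists. Of 18 complement and MHC class II genes 6 were lower and 1 higher. Of 35 genes of the unfolded protein response and heat shock, 10 were lower and 2 higher (6 lower without day 7 replicate 1), among the lower ones Hspa1a, a heat shock protein, with 260 and 270 FPKM in uncrushed and 85.1 and 115 FPKM at day 7 (-1.45, SE 0.20, adjusted p = 0.000339).

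Genes of mitosis and cytokinesis remained high. Of 35 tested, 32 were higher at day 7 and 0 lower by edgeR, also 0 lower at an unadjusted p below 0.05 and 0 by DESeq2, the same 32 had been higher at all 3 days, and the median log2 fold change went from 1.62 at day 3 and 1.42 at day 5 to 1.04 at day 7. Against day 3, 18 were lower. Cdk1, the kinase that drives entry into mitosis, had 16.6 and 15.7 FPKM in uncrushed and 46.0 and 44.2 FPKM at day 7 (log2 fold change 1.44, SE 0.16, adjusted p = 6.41e-05). Plk1, a mitotic kinase, had 2.70 and 2.45 FPKM and 8.45 and 7.59 FPKM (1.60, SE 0.15, adjusted p = 2.14e-05). Mki67, the antigen used to count dividing cells, had 39.1 and 37.0 FPKM and 55.8 and 62.5 FPKM (0.60, SE 0.10, adjusted p = 0.000858), and Top2a, a topoisomerase of dividing cells, 45.6 and 33.8 FPKM and 59.2 and 58.9 FPKM (0.54, SE 0.12, adjusted p = 0.0052). In all 4 genes both day 7 libraries lay above both uncrushed libraries, as in 41.8% of all genes tested.

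The promoters of these genes were read from RefSeq on GRCr8, from 250 bases before to 50 bases after the start of the gene, for 30 of the 35 members. The cell cycle homology region TTTGAA, which a repressor complex of resting cells binds, was found on either strand in 24 of the 30, or 80%, against 11.8% of 9289 tested genes with a promoter and 18.1% of all 24206 promoters. The CCAAT box, bound by NF-Y, was found on either strand in 23 of the 30, or 76.7%, against 38.1% of the tested genes and 37.8% of all promoters, and 19 of the 30 held both. The motifs were counted separately and may overlap. The promoters of 4 genes of the list that hold both are shown because they let the shared letters be seen side by side, 5′ to 3′ along the gene, with every match to either motif on either strand in capitals. A match is a description of the letters and not of a bound site.
Cdk1 (chr20:19265043-19265342, plus strand): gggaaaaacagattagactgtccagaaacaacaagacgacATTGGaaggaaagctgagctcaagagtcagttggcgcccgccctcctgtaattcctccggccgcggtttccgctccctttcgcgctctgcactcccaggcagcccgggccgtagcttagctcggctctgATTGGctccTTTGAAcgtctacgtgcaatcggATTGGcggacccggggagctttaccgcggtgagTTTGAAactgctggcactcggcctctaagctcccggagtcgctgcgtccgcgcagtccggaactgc
Plk1 (chr1:186147408-186147707, plus strand): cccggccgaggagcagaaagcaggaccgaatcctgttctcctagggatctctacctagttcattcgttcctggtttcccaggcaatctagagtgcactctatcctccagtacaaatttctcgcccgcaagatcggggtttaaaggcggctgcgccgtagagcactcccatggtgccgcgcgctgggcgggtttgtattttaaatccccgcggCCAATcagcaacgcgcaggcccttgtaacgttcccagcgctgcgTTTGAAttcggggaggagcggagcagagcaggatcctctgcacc
Top2a (chr10:84473044-84473343, minus strand): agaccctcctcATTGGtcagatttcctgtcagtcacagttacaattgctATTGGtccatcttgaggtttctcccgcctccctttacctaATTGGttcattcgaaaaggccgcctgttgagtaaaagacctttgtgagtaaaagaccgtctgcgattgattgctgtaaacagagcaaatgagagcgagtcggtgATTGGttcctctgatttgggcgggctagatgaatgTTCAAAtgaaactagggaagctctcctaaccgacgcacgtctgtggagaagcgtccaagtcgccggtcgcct
Mki67 (chr1:199952544-199952843, minus strand): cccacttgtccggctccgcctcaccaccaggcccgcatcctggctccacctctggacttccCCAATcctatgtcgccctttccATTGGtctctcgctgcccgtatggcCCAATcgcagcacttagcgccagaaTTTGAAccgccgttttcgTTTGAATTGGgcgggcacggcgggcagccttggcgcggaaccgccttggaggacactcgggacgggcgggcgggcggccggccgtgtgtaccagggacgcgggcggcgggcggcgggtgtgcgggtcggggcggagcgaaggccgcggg

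Of 42 genes of DNA replication and the passage from G1 to S phase, 25 were higher and 3 lower, and 17 were lower than at day 3. Ccnd1, cyclin D1, had 37.2 and 41.5 FPKM in uncrushed and 169 and 168 FPKM at day 7 (log2 fold change 2.06, SE 0.12, adjusted p = 1.39e-06), down from 3.17 at day 3. Cdk6, a kinase partner of the D cyclins, moved the other way and further with time, from 84.3 and 92.8 FPKM in uncrushed to 14.9 and 16.4 FPKM at day 7 (-2.54, SE 0.11, adjusted p = 2.97e-07), by 1.27 below its day 3 level. Cdkn1a, the inhibitor p21, was lower (-1.50, SE 0.29, adjusted p = 0.00212). Cdkn1c, the inhibitor p57, had 6.93 and 5.73 FPKM and 11.6 and 12.5 FPKM (0.89, SE 0.16, adjusted p = 0.00149) and had risen by 1.59 since day 3.

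Lysosomal genes were higher in 26 and lower in 6 of 52, with a median log2 fold change of 0.30 after 0.48 at day 3. Lipa, the acid lipase that frees cholesterol from its esters, was the highest, with 6.45 and 5.48 FPKM in uncrushed and 40.7 and 52.9 FPKM at day 7 (log2 fold change 2.93, SE 0.14, adjusted p = 5.68e-07). Ctsd, an acid protease, had 45.6 and 47.2 FPKM and 134 and 113 FPKM (1.37, SE 0.15, adjusted p = 7.65e-05), and Galc, which degrades the main galactolipid of myelin, 14.8 and 11.5 FPKM and 39.9 and 40.6 FPKM (1.58, SE 0.12, adjusted p = 6.31e-06). Ctsl, another protease, was lower, with 131 and 158 FPKM and 55.7 and 52.3 FPKM (-1.47, SE 0.12, adjusted p = 1.17e-05). Of 30 phagocytic receptors and engulfment genes 9 were higher and 11 lower, and Mertk, a receptor for dying cells and debris, had 4.83 and 4.20 FPKM and 22.1 and 27.6 FPKM (2.42, SE 0.15, adjusted p = 1.79e-06), while its partner Axl was at 0.69 (SE 0.11, adjusted p = 0.000826). Autophagy genes moved little, with 4 higher (2 without day 7 replicate 2) and 5 lower of 30, under the 46.9% called among all genes.

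Of 28 collagens 16 were lower and 5 higher, with a median of -1.21 that had been -2.03 at day 3. Col28a1, a collagen of the Schwann cell surface, had 78.4 and 72.2 FPKM in uncrushed and 3.23 and 3.24 FPKM at day 7 (log2 fold change -4.58, SE 0.19, adjusted p = 2.22e-07), and Col4a1, of the basal lamina, 105 and 90.2 FPKM and 20.3 and 20.7 FPKM (-2.29, SE 0.10, adjusted p = 3.61e-07). Col3a1, a fibrillar collagen and also a fibroblast marker, had 1023 and 1015 FPKM and 126 and 89.3 FPKM (-3.28, SE 0.27, adjusted p = 1.2e-05). It made up most of the sum of the fibroblast markers in uncrushed cells, where Col1a1 was the highest of them at day 7, and was the sole one called among 12 tested by edgeR, where 5 were lower and 1 higher at an unadjusted p below 0.05 and DESeq2 called 4 lower and 0 higher. The values of those not called included Dcn (-1.18, adjusted p = 0.0737), Lum (-1.75, adjusted p = 0.0549), Pdgfra (-1.77, adjusted p = 0.0648) and Col1a1 (-0.44, adjusted p = 0.0521), and on the other side Thy1 (2.16, adjusted p = 0.0583). The first 4 were called lower in 5 of 14 alternatives for Dcn, 6 of 14 for Lum, 5 of 13 for Pdgfra and 6 of 14 for Col1a1, and Thy1 was called higher in 3 of 12. The part of fibroblast RNA in the lower collagen values was not tested. Col18a1, the source of endostatin, was higher (1.60, SE 0.12, adjusted p = 5.62e-06), as was Col7a1, the collagen of anchoring fibrils, with 0.22 and 0.17 FPKM and 2.15 and 2.62 FPKM (3.56, SE 0.25, adjusted p = 4.2e-06).

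Of 32 genes of laminins, integrins and the basal lamina 20 were lower and 8 higher. Lama2, the laminin chain of the Schwann cell basal lamina, had 352 and 307 FPKM in uncrushed and 114 and 116 FPKM at day 7 (log2 fold change -1.56, SE 0.10, adjusted p = 2.27e-06), and Itgb4, the integrin chain of mature Schwann cells, was at -0.95 (SE 0.09, adjusted p = 2.46e-05). Itga8 was the highest, with 0.36 and 0.36 FPKM and 5.28 and 4.14 FPKM (3.66, SE 0.20, adjusted p = 9.22e-07), and Dag1, dystroglycan, which binds laminin, was at 0.66 (SE 0.09, adjusted p = 0.000339). Matricellular proteins, proteoglycans and proteases were split, 16 higher and 17 lower of 47, with 10 and 11 lower without day 7 replicates 1 and 2 and 11 without uncrushed replicate 1. Sparcl1, an anti-adhesive matrix protein, had 895 and 771 FPKM and 36.5 and 21.4 FPKM (-4.88, SE 0.25, adjusted p = 7.42e-07), after -7.00 at day 3. Thbs4 had 5.29 and 3.35 FPKM and 56.5 and 56.2 FPKM (3.66, SE 0.19, adjusted p = 8.36e-07), Tnc, tenascin C, 7.67 and 5.79 FPKM and 44.3 and 68.6 FPKM (3.06, SE 0.21, adjusted p = 3.98e-06), and Gpc1, a cell surface proteoglycan, was at 3.32 (SE 0.13, adjusted p = 1.71e-07), the first and last having been at 5.60 and 4.78 at day 3.

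Ion channel genes were lower in 18 and higher in 7 of 36, with 4 higher without either day 7 library or uncrushed replicate 1. Scn7a, a sodium channel of non-myelinating Schwann cells, had 1673 and 1667 FPKM in uncrushed and 178 and 149 FPKM at day 7 (log2 fold change -3.37, SE 0.20, adjusted p = 1.4e-06) with no called move since day 3. Kcna2, a potassium channel, had climbed from -5.99 at day 3 to -1.78 (SE 0.15, adjusted p = 1.55e-05), with 62.3 and 65.3 FPKM and then 20.5 and 16.3 FPKM. Kcnd3 had gone the other way, from -2.16 to -3.73 (SE 0.19, adjusted p = 5.92e-07). Of 32 genes of nodes, paranodes and axon contact, 17 were lower and 6 higher, and Gldn, which Schwann cells use to gather sodium channels at nodes, had 50.1 and 50.7 FPKM and 21.9 and 16.6 FPKM (-1.43, SE 0.18, adjusted p = 0.000161) after -3.72 at day 3. Nfasc, neurofascin, was lower than at day 3, at -1.90 (SE 0.13, adjusted p = 4.57e-06) after -1.17, and Nrcam, a partner of gliomedin, was higher (0.65, SE 0.09, adjusted p = 0.000316).

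Axon guidance genes were divided evenly, 16 higher and 16 lower of 49, while 28 had been lower at day 3, when 25.7% of all genes were. Sema3e, a secreted semaphorin, was among the 10 higher genes with the smallest p, with 1.14 and 0.91 FPKM in uncrushed and 53.7 and 68.8 FPKM at day 7 (log2 fold change 6.05, SE 0.17, adjusted p = 9.42e-08). Slit2, a repellent for axons, had 9.92 and 9.81 FPKM and 29.9 and 32.2 FPKM (1.60, SE 0.11, adjusted p = 3.26e-06), whereas Sema5a had 57.7 and 64.0 FPKM and 5.31 and 3.67 FPKM (-3.79, SE 0.21, adjusted p = 9.65e-07). Cytoskeletal genes were higher in 24 and lower in 6 of 44, and 23 of the 44 were lower than at day 3. Vim, vimentin, had 3166 and 2765 FPKM and 7343 and 7636 FPKM (1.29, SE 0.10, adjusted p = 5.98e-06). Nefm, a neurofilament subunit, was the highest of the list, with 12.5 and 14.1 FPKM and 117 and 106 FPKM (3.03, SE 0.20, adjusted p = 3.24e-06), and had risen by 1.12 since day 3, while Tuba4a was at -2.98 (SE 0.27, adjusted p = 2.27e-05).

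Genes of oxidative phosphorylation were higher in 28 of 42 by small steps, with a median log2 fold change of 0.54 that had been 0.56 at day 3. Cox8a, a subunit of complex IV, had 55.7 and 90.2 FPKM in uncrushed and 201 and 199 FPKM at day 7 (log2 fold change 1.38, SE 0.20, adjusted p = 0.000366), and Ndufs1, of complex I, 20.8 and 18.9 FPKM and 32.5 and 30.4 FPKM (0.62, SE 0.10, adjusted p = 0.000853). Glycolysis and the pentose phosphate pathway gave 13 higher and 9 lower of 28, among them Ldha, lactate dehydrogenase, at -0.59 (SE 0.10, adjusted p = 0.00115). Aldoc, an aldolase, had 79.2 and 78.4 FPKM and 24.2 and 21.2 FPKM (-1.84, SE 0.11, adjusted p = 1.79e-06).

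Signaling lists are set beside 25% higher and 21.9% lower over all genes tested by edgeR. PI3K, Akt and mTOR genes gave 11 higher and 10 lower of 35 by edgeR, near those shares, but 5 and 10 by DESeq2. Without day 7 replicate 1 there were 6 of each, without day 7 replicate 2 there were 6 lower, and without either uncrushed library 7 higher. AGE-RAGE genes gave 9 higher and 20 lower of 47, feedback regulators of ERK 5 and 9 of 19, and hedgehog, Notch, Wnt and Hippo genes 12 and 19 of 50. Akt1 had 24.5 and 22.3 FPKM in uncrushed and 45.9 and 44.6 FPKM at day 7 (log2 fold change 0.91, SE 0.09, adjusted p = 3.86e-05). Ager, the receptor for advanced glycation end products, was near the limit of detection at 0.30 and 0.84 FPKM and 0.75 and 1.08 FPKM and was not called (0.61, adjusted p = 0.434). Etv5, a factor that follows ERK activity, was higher (1.74, SE 0.18, adjusted p = 4.34e-05) and had risen by 1.29 since day 3. Ptch1, the hedgehog receptor and a target of the pathway, had 14.7 and 12.7 FPKM and 26.7 and 28.5 FPKM (0.97, SE 0.10, adjusted p = 5.88e-05), while Gli1, another target, had 0.39 and 0.29 FPKM and 0.13 and 0.10 FPKM and was not called (-1.58, adjusted p = 0.0982).

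**Figure D4:**
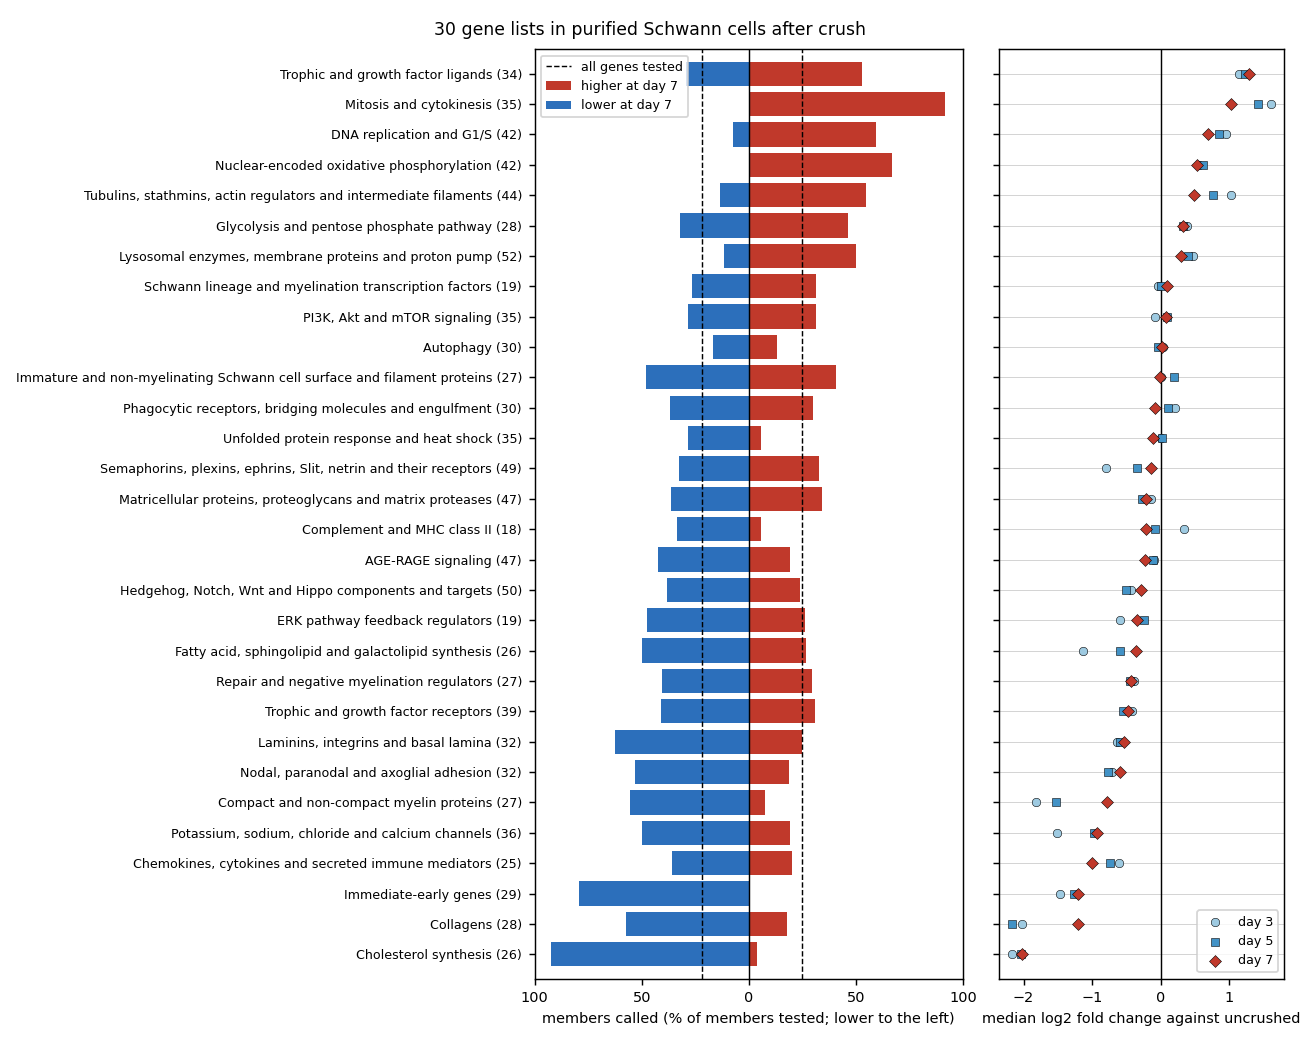
On the left, the share of tested members of 30 gene lists called higher (right of 0) or lower (left of 0) at day 7, with dashed lines at the shares of all genes tested, 25% and 21.9%, and the number tested in parentheses. On the right, the median log2 fold change against uncrushed at days 3, 5 and 7, which is 1.29 at day 7 for the ligands at the top and -2.02 for cholesterol synthesis at the bottom.

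The Wnt pathway held the largest single drop among genes that reached 10 FPKM. Sfrp5, a secreted Wnt inhibitor, had 29.4 and 26.7 FPKM in uncrushed and 0.03 and 0 FPKM at day 7, with 1348 and 1 counts over the groups, a 1564-fold ratio with a counting interval of 280 to 61810. Lgr5, a receptor that strengthens Wnt signals, had 130 and 117 FPKM and 8.17 and 9.17 FPKM (log2 fold change -3.88, SE 0.12, adjusted p = 9.42e-08). Nkd2, an inhibitor inside the cell, was above uncrushed at day 3 (0.35) and below it at day 7, with 31.2 and 29.6 FPKM and then 5.34 and 6.20 FPKM (-2.45, SE 0.11, adjusted p = 3.23e-07).

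Further genes with the largest or most certain rises lay outside the lists. Npas2, a transcription factor of the circadian clock, had the smallest p of the comparison, with 0.56 and 0.58 FPKM in uncrushed and 29.3 and 31.7 FPKM at day 7 (log2 fold change 5.69, SE 0.14, adjusted p = 7.13e-08), and had gained 0.54 since day 3. Pcsk1, a protease that matures peptide hormones, had 0.61 and 0.38 FPKM and 35.5 and 47.4 FPKM (6.33, SE 0.21, adjusted p = 1.12e-07). Aldh1a2, which makes retinoic acid, had 0.14 and 0 FPKM and 13.5 and 13.1 FPKM (7.40, SE 0.35, adjusted p = 5.07e-07). Rab3b, a small GTPase of secretory vesicles, had 4 counts over the uncrushed and 1339 over the day 7 libraries, a 289-fold ratio with a counting interval of 112 to 1061. Baalc, an anchored protein of neural cells, was at 4.41 (SE 0.15, adjusted p = 1.24e-07), Scube1, a secreted glycoprotein, at 2.98 (SE 0.10, adjusted p = 1.24e-07), and Emb, an adhesion molecule, had 5 and 360 counts, a 62.1-fold ratio with a counting interval of 26.4 to 192.

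Among the largest falls, 3 belonged to the same family of lipid transporters of the ABCA class. Abca8a had 503 and 483 FPKM in uncrushed and 9.84 and 11.3 FPKM at day 7 (log2 fold change -5.58, SE 0.26, adjusted p = 4.49e-07), Abca8 was at -6.07 and Abca9 at -5.34. Abca9 had counts that were not whole numbers, the sign of reads shared between genes, and the counts of Abca8 and Abca8a were whole. Mfap5, a protein of elastic microfibrils, had 95.2 and 116 FPKM and 2.95 and 1.90 FPKM (-5.35, SE 0.21, adjusted p = 2.1e-07), and Col11a1, a minor fibrillar collagen, 22.3 and 23.1 FPKM and 0.97 and 0.84 FPKM (-4.71, SE 0.17, adjusted p = 1.29e-07). St8sia6, which adds sialic acid, had 63.3 and 63.8 FPKM and 1.18 and 1.59 FPKM (-5.59, SE 0.30, adjusted p = 9.11e-07). Cp, the copper oxidase ceruloplasmin, had 52.4 and 49.8 FPKM and 4.82 and 4.95 FPKM (-3.42, SE 0.10, adjusted p = 9.42e-08), and Irf1, a factor of the interferon response, 110 and 93.4 FPKM and 11.7 and 10.9 FPKM (-3.21, SE 0.12, adjusted p = 1.29e-07).

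Some genes moved on between day 3 and day 7, with most of the difference in place at day 5. Grb14, an adaptor that dampens insulin signaling, went from -2.03 at day 3 and -3.61 at day 5 to -4.19 (SE 0.18, adjusted p = 2.99e-07), and Nrp2, a co-receptor for semaphorins, from -0.37 and -1.26 to -1.69 (SE 0.10, adjusted p = 1.79e-06). C1ql3, a secreted protein of synapses, had 9.48 and 10.8 FPKM and 30.7 and 37.5 FPKM (1.69, SE 0.18, adjusted p = 5.9e-05) after -1.55 at day 3 and 0.92 at day 5, where it was already called higher. Cdh6, a cadherin, likewise crossed the uncrushed level, from -1.56 at day 3 and 0.73 at day 5, also called higher, to 0.97 (SE 0.15, adjusted p = 0.000642). Among genes called at day 7 alone, Snx16, a sorting protein of endosomes, had 14.8 and 17.3 FPKM and 28.8 and 30.8 FPKM (0.86, SE 0.12, adjusted p = 0.000353), and Sptbn1, a spectrin, 733 and 652 FPKM and 424 and 493 FPKM (-0.69, SE 0.10, adjusted p = 0.00055).

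Other changes were receding from an early peak. Gpnmb, a glycoprotein of lysosomes, was at 3.98 at day 3 and had 4.34 and 4.38 FPKM in uncrushed and 12.4 and 15.9 FPKM at day 7 (log2 fold change 1.65, SE 0.14, adjusted p = 1.64e-05), by 2.33 below day 3. Igfbp5, which binds insulin-like growth factors, went from 4.60 to 1.89 (SE 0.18, adjusted p = 2.45e-05), and S100a4, a calcium-binding protein, from 2.03 to 0.58 (SE 0.09, adjusted p = 0.000797). On the lower side, Adamts17, a matrix protease, came back from -6.52 to -2.57 (SE 0.13, adjusted p = 7.76e-07), with 56.3 and 53.0 FPKM in uncrushed and 10.5 and 8.39 FPKM at day 7. Slc36a2, an amino acid transporter, came back from -5.66 to -1.71 (SE 0.14, adjusted p = 1.28e-05), and Id2, an inhibitor of differentiation factors, from -4.12 to -1.73 (SE 0.14, adjusted p = 1.17e-05).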

How the data were processed

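Per the labels and the methods of the study, total RNA of purified rat Schwann cells was converted to amplified cDNA with the Ovation system, for which no molecular identifiers are described, and sequenced. The authors used STAR for alignment, with Rnor_6.0 as the genome, and RSEM for quantification. The deposited expected counts cover 31038 genes and carry no normalization or filter. The authors' RSEM also gave the deposited FPKM, scaled to effective gene length and library total. A further deposited table holds FPKM that the authors made with TopHat2 and Cufflinks for 6274 genes, along with module assignments that were not used. The count matrix of the series held the same values as the files of single libraries. The strand setting of the counting is not given in the sources used here, so overlapping and antisense genes cannot be told apart. Total counts were 12334355 to 17850534 in the 4 libraries compared, and intervals and floors cover counting error only. The number of per-sample columns left unused was 0.

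Libraries were grouped by their labels. After rounding of the expected counts to integers, genes were tested by quasi-likelihood in edgeR 4.0.16 (limma 3.58.1, R 4.3.3) after TMM normalization and filterByExpr, with all 8 Schwann cell libraries sharing the estimate of the spread and Benjamini-Hochberg adjustment over 14961 genes at 0.05. Standard errors were derived from the log2 fold change and the F statistic. Genes with up to 3 counts in each library of a group are given as a bound against a floor of 3 counts over the group where that group had no count, and otherwise as a ratio with an exact 95% interval. List medians were the same to 2 decimals with such genes at these limits. Lists are described by counts and medians beside those of all genes. On simulated counts, 200 of the 14961 genes were changed, at day 7 alone. There edgeR tested 14561 genes and found 118 of the 200, and 10 of its 128 calls were false. The real comparison called 46.9% of genes, a share of changed genes that was not simulated. Other work used Python 3.11.15, numpy 2.4.6, pandas 2.3.3, scipy 1.17.1 and matplotlib 3.10.9. Of 287 genes named by the rule, 35 had counts that were not whole numbers in these libraries, where RSEM shares reads between records, among those described Abca9, Cp, Gfra1, Gpc1, Hspa1a, Kif19, Ldha, Mag, Mdk, Pcsk1 and Srm, so their values are less certain.

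The members, the 30 functional and 9 marker lists and the tests were chosen with earlier results of these data known. The rule names anchor genes of each list, the highest and lowest member of each functional list, the 10 genes with the smallest p in each direction, the 10 with the largest change that reach 10 FPKM, and 8 in each class of day 7 against day 3 and of day 7 alone. A selection of these is described. Genes of the mitochondrial genome, Arhgap24, Thy1, LOC103694571 and LOC102555330 fall outside this rule and were picked with their values in view. Promoter windows come from RefSeq, GRCr8, since no genome of Rnor_6.0 was used here. The choice of motifs and of 4 promoters followed a look at the windows. Alternatives were DESeq2 1.42.0, upper quartile and RLE factors, no filter, a mean of at least 50 counts, only the groups compared, a test against a 1.5-fold change, replicate number as a block, each uncrushed and day 7 library left out, and, chosen after seeing the data, each day 3 library left out and limma on log2 (Cufflinks FPKM + 1). Some genes that the rule names are not reported here.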

Additional observations from a re-analysis of the deposited data

Results flagged for a closer look

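Between day 3 and day 7 some genes crossed the uncrushed level, with both effects called. There were 101 such genes, 72 lower at day 3 and higher at day 7 and 29 the reverse. The 4 in each direction with the smallest p in the direct test of day 7 against day 3 are given here, as a difference of log2 level, day 7 minus day 3, and adjusted p from edgeR. The choice of these genes already favours a call in that test. Ntm, an adhesion molecule of neurons, rose by 3.90 (adjusted p = 2.1e-06), with 14.6 and 14.4 FPKM in uncrushed, 2.79 and 1.72 FPKM at day 3 and 34.9 and 31.5 FPKM at day 7. Kif19, a kinesin, rose by 3.91 (adjusted p = 2.1e-06), with 12.2 and 13.1, 1.56 and 1.04 and 21.1 and 19.5 FPKM. Pde7b, a phosphodiesterase, rose by 2.46 (adjusted p = 2.03e-06), although its call above uncrushed at day 7 (0.26, adjusted p = 0.0426) was lost in 13 of 15 alternatives besides the test against a 1.5-fold change. Tnfrsf21, a death receptor, rose by 2.13 (adjusted p = 6.81e-06), with a call at day 7 (0.36, adjusted p = 0.0273) lost in 8 of 15. In the reverse direction, Nkd2 differed by -2.80 (adjusted p = 2.03e-06) and Arhgap24, a GTPase-activating protein, by -1.02 (adjusted p = 0.000149). The records LOC103694571 and LOC102555330 both differed by -3.32 (adjusted p = 0.000149), and they hold the same values in every Schwann cell library, so they count as a single measurement.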

How the results depend on the processing

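Day 7 against uncrushed called 5262 to 6645 genes when a single library of the uncrushed, day 3 or day 7 groups was left out, day 7 against day 3 1533 to 3643, day 7 against day 5 31 to 571, day 3 against uncrushed 5906 to 7791 and day 5 against uncrushed 7101 to 8064, and 4246 to 4686 genes were called at all 3 days in the same direction. The count of day 7 against day 3 was 1597 without day 7 replicate 1, 1772 without day 3 replicate 1 and 1533 without day 3 replicate 2, for day 7 against day 5 the count was 31 and 123 without day 7 replicates 1 and 2, 133 and 129 without those of day 3 and 571 and 565 without those of uncrushed, and the cause was not tested. The test against a 1.5-fold change asks for a larger effect and called 3158 genes at day 7 against uncrushed, 786 against day 3, 22 against day 5, 3986 at day 3 and 4080 at day 5, with 2260 at all 3 days. Day 7 against day 5 gave 511 calls with DESeq2, 1048 with no filter and 441 with only the groups compared, and 71.3% of its calls were higher with upper quartile factors against 60.5%. Same-numbered libraries did not deviate together (correlations of deviations from -0.05 to 0.05 over 6 pairs of groups), so the replicate numbers do not pair them, and the replicate block gave 6766 genes at day 7 against uncrushed, 2851 against day 3 and 179 against day 5.

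The FPKM of Cufflinks with limma gave 5646 of 6274 genes at day 7, 91.4% of them higher against 53.4% in the counts, with a median log2 fold change of 0.66 over those genes, 1947 calls against day 3 (71.6% higher against 48.8%), 893 against day 5 (8.73% higher against 60.5%) and 5053 at day 3 (84.8% higher against 51.1%). The shares in the counts are over 14961 genes tested, so the set of genes differs as well as the scale. Against that raised median, Cnp (0.61) and Gal3st1 (0.79) were called higher and Cldn19 (0.16), Arhgap24 (0.092) and Srm (1.14) turned in sign. The cause of the shift was not tested.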

Other observations

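The 13 protein-coding genes of the mitochondrial genome were higher at day 7 in 10 cases by edgeR, with log2 fold changes from 0.14 to 1.00 and a median of 0.71, beside 0.62 at day 3. ND4, a subunit of complex I, was at 0.80 (SE 0.14, adjusted p = 0.00134). The nuclear genes of the same complexes had a median of 0.54.

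The expected counts of Srm, spermidine synthase, and of the record LOC100912604 changed places between groups. Srm had 276 and 205 counts in uncrushed and 0 and 23.8 at day 7, while LOC100912604 had 0 and 0 in uncrushed and 580 and 413 at day 7, with fractional counts in both. Their sum, as counts per 1000000 after TMM scaling, was 19.2 and 16.6 in uncrushed and 19.5 and 18.1 on day 3. It was 29.4 and 22.3 on day 5 and then 31.8 and 34.5 in the day 7 libraries. The values of either record alone are therefore uncertain, and the sum was not tested.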
